A study of Mus musculus with 16 samples.

Results

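The genes described here are those of late spermatid chromatin: the protamine genes Prm1 and Prm2, their cluster neighbor Prm3, the transition protein genes Tnp1 and Tnp2, and the spermatid linker histone genes H1fnt and Hils1. Prm3 carries the protamine name, but its protein is acidic and is found in the cytoplasm of elongated spermatids. These 7 genes were taken by name from the 21938 protein-coding genes that the GENCODE annotation of GRCm38 (mm10) places on the autosomes, X, and Y. Haploid spermatids from 2 sibling pairs of 2-month-old male mice, with 1 H2A.B KO and 1 WT male in each pair, were the source of AutoCUT&RUN libraries, in which an antibody tethers a nuclease to chromatin and the released DNA fragments are sequenced. The 16 libraries comprise 2 for each genotype with H3K4me3, H3K27me3, or H3K9me3 as the target and 2 for each genotype with IgG as control. The KO males were hemizygous for a CRISPR-made allele that carries small deletions in all 3 X-linked H2A.B genes, from 1 founder strain backcrossed to C57BL/6J, and the WT males were their siblings. The cells had been sorted live on DNA content, so each library pools the cells of 1 animal, and a mark on fewer cells cannot be told apart from less of it per cell.

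In haploid male germ cells, histones are first loosened and evicted, then transition proteins bind the DNA, and finally protamines condense it into a compact, largely histone-free form. Genes for transition proteins and protamines are transcribed in round spermatids, and much of their mRNA is stored for later translation. H3K4me3 marks the starts of active and poised genes, H3K27me3 is the mark of Polycomb-repressed genes, and H3K9me3 marks heterochromatin.

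A library held between 159611 and 6746382 fragments with distinct coordinates. The H3K4me3 libraries held 784360 to 3394830, the H3K27me3 libraries 200457 to 3806026, the H3K9me3 libraries 5009169 to 6746382, and the IgG libraries 159611 to 270598. Repeated coordinates, counted once here, made up 33.6% to 83.4% of the fragments on these chromosomes. In the small IgG libraries, a count of 3 over all 4 libraries corresponds to 3.79 FPM (the count in a window scaled to a library of 1000000 distinct fragments), the floor used for genes without an IgG fragment. A check of the genotypes at the H2A.B genes was not informative: fragments centered in the 3 genes numbered 9 and 10 in the KO libraries of replicates 1 and 2 and 4 and 12 in the WT libraries. The deleted stretches themselves were not counted. Among marker genes, H3K4me3 passed the test against IgG, as it did at 47% of all genes tested, at 10 of 10 round spermatid genes and 5 of 6 spermatocyte genes, and at 0 of 6 spermatogonial, 0 of 5 Sertoli, and 0 of the 2 tested of 4 Leydig genes. The spermatocyte markers summed to 81.6 and 83.7 FPM of H3K4me3 in the KO libraries and to 65.0 and 76.6 FPM in the WT libraries. The spermatogonial markers summed to between 2.06 and 3.71 FPM in KO and between 3.21 and 17.8 FPM in WT, and the Sertoli markers to between 3.83 and 4.45 FPM in KO and between 1.27 and 3.21 FPM in WT. The 4 Leydig and the 3 macrophage markers summed to at most 1.47 FPM in any library. Their part in the differences between KO and WT was not tested.

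Prm1, Prm2, Prm3, and Tnp2 form a cluster on the - strand of chromosome 16, and Tnp1, H1fnt, and Hils1 stand alone on other chromosomes. Tnp2 lies at chr16:10787936-10788660, Prm3 at chr16:10790505-10790914, Prm2 at chr16:10791380-10796134, and Prm1 at chr16:10796326-10805839. Tnp1 lies at chr1:73015074-73015909 and H1fnt at chr15:98255986-98257293, both on the - strand, and Hils1 lies at chr11:94967593-94968456 on the + strand. Hils1, H1fnt, and Prm3 each have 1 exon, and the annotated Tnp1 and Tnp2 transcripts have 2. Hils1 lies inside Sgca, a muscle sarcoglycan gene of the opposite strand, and the Tnp1 start lies inside the antisense gene 1700027A15Rik. Fragments carry no strand, so the signal at those starts cannot be assigned to either gene.

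The annotated starts of Prm1 and Prm2 needed care. The gene records of both include a longer transcript with an upstream first exon, so that the record of Prm1 starts 9016 bp, and that of Prm2 4029 bp, before the start given by RefSeq. The other 5 genes start within 14 bp of the RefSeq position. The window at the Prm2 record overlaps the Prm1 gene, and the window at the Prm1 record overlaps the antisense gene Gm46563. Values are therefore given at the gene record, which the counting rule named, and for Prm1 and Prm2 also at the RefSeq start, a choice made after the profiles had been seen.

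Sequence upstream of 4 starts is shown: Prm2 and Prm3 had H3K4me3 with almost no H3K27me3 fragment, and Tnp1 and H1fnt had fragments of both, although none of the 4 passed for H3K27me3. Each is the RefSeq promoter sequence of GRCm38 in the direction of the gene, up to 250 bases before the RefSeq start and without any annotated exon of these genes. Capitals mark matches to TGACNTCA, a form of the cAMP response element at which CREM acts in spermatids, or to TATAAA, on either strand. The stretches lie at chr16:10792106-10792355 for Prm2, chr16:10790915-10791164 for Prm3, chr1:73015910-73016149 for Tnp1, and chr15:98257308-98257557 for H1fnt (listed by RefSeq as H1f7), all on the - strand.
Prm2: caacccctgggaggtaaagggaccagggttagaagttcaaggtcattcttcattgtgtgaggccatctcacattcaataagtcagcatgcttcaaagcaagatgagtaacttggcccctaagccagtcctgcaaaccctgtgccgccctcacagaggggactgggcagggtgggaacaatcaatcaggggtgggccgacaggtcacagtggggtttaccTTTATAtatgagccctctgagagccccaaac
Prm3: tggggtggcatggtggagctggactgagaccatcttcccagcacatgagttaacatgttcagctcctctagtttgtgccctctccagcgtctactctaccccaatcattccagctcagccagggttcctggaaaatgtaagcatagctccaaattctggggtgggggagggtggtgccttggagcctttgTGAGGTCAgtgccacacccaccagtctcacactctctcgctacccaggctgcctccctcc
Tnp1: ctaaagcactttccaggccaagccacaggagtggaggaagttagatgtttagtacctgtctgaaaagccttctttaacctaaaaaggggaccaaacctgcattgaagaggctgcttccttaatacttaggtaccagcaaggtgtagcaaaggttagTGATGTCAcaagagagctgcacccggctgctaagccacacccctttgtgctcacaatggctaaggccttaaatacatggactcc
H1fnt: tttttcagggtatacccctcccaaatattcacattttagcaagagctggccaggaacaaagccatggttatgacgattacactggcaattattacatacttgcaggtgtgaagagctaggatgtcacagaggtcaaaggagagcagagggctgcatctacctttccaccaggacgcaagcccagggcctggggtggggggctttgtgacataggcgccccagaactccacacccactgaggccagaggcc
TGACNTCA occurred in the 250 bases before Prm1, Prm3, and Tnp1, that is in 3 of the 7 genes, and in 7.49% of 32851 promoters of that length. The match before Prm1, from base -64 to -57, lies mostly inside the annotated first exon of its shorter transcript. TATAAA occurred before Prm2 alone, from base -31 to -26 on the opposite strand, and in 12.4% of all promoters. The 250 bases before the RefSeq starts held 0 to 3 CpG, against a median of 6 over all promoters, of which 29.0% held at most 2. The 2-kb windows at the gene records held 24 (Prm1) to 55 (H1fnt) CpG, against a median of 61 over all genes, and between 26.1% and 45.9% of genes had fewer.

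Of the marks profiled, H3K4me3 had the most fragments at these starts. Between 3 and 106 H3K4me3 fragments per library fell within 1 kb of 6 of the 7 gene-record starts. The fragments exceeded those of IgG at these 6, Prm2, Prm3, Tnp1, Tnp2, H1fnt, and Hils1, as at 47% of all genes tested. Prm1, with 1 to 5 fragments per library at its record, did not pass (adjusted p = 0.366, quasi-Poisson test). Over the 4 H3K4me3 libraries, the 7 windows together held 774 fragments, whereas the H3K9me3 libraries gave 27, the H3K27me3 libraries 108, and the IgG libraries 7. These are raw counts, from totals of 7708003, 23146258, 7609887, and 791157 distinct fragments in the same order. The IgG count therefore comes from far smaller libraries.

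At Hils1, whose linker histone-like protein is found in elongating spermatids, H3K4me3 was 17.1 and 31.2 FPM in the KO libraries and 7.65 and 20.2 FPM in the WT libraries. One IgG fragment fell there, which put H3K4me3 at 18.4 times IgG with a 95% counting interval of 3.26 to 730 (adjusted p = 0.00094, quasi-Poisson test across all genes). Hils1 had the highest mean of the 7 genes, 19.0 ± 9.72 FPM (SD, n = 4), above 85.6% of all genes. That order rests on the KO libraries, since in WT the mean of Prm3 (16.003 FPM) was above that of Hils1 (13.9 FPM). At H1fnt, the other spermatid linker histone, the KO libraries had 12.6 and 19.7 FPM and the WT libraries 10.2 and 10.5 FPM, with no IgG fragment, so that H3K4me3 was at least 3.93-fold higher than the floor (adjusted p = 0.0014).

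The transition protein genes had similar levels. At Tnp1, H3K4me3 was 13.4 and 19.1 FPM in KO and 10.2 and 11.004 FPM in WT, 5.90 times IgG (interval 1.597 to 49.3, 2 IgG fragments, adjusted p = 0.018). At Tnp2 it was 15.6 FPM in both KO libraries and 10.2 and 16.05 FPM in WT, 6.0045 times IgG (interval 1.63 to 50.2, 2 IgG fragments, adjusted p = 0.016). The call was lost at Tnp1 in 9, and at Tnp2 in 8, of the 16 fits that left out 1 library each, with adjusted p-values of up to 0.145 and 0.113 (quasi-Poisson test). At Tnp2 the 2 KO values lay within the range of the WT values, of which that of replicate 1 was low.

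Among the protamine genes, the level depended on which start was used. Prm3, a short gene without introns between Prm2 and Tnp2, had 17.8 and 21.2 FPM in KO and 12.7 and 19.3 FPM in WT, 7.595 times IgG (interval 2.07 to 63.3, 2 IgG fragments, adjusted p = 0.0046). At the gene record of Prm2, which encodes a protamine made as a longer precursor, the values were 10.4 and 14.1 FPM in KO and 3.82 and 11.004 FPM in WT (at least 3.05-fold higher than the floor, adjusted p = 0.0049). This record start lies 689 bp from the RefSeq start of Prm1, so 53 of the 89 H3K4me3 fragments counted here are also among the 98 at that start of Prm1. At the RefSeq start of Prm2 they were 15.6 and 25.3 FPM in KO and 15.3 and 16.5 FPM in WT, all above the record's values for the same library. The RefSeq starts of Prm2 and Prm3 are 1191 bp apart, so their windows overlap and share 55 of the 155 H3K4me3 fragments counted at Prm2 and of the 148 at Prm3.

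Prm1, which encodes the protamine made directly in its mature form, showed the widest gap between its starts. Its gene record had 0.742 and 1.47 FPM in KO and 2.55 and 1.38 FPM in WT, below the IgG floor, and did not pass (adjusted p = 0.366). Its RefSeq start had 11.1 and 15.6 FPM in KO and 2.55 and 12.8 FPM in WT, at least 3.35-fold higher than the floor (adjusted p = 0.0024, quasi-Poisson test), whereas at the record the adjusted p stayed between 0.366 and 0.535 in the 14 of 16 fits with 1 library left out that tested it. With RefSeq starts, all 7 genes passed against IgG, as did 49.3% of the 11666 genes tested there. The value of the WT replicate 1 library at Prm1 rested on 2 fragments.

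Across all genes, 47% of the 18428 tested passed as higher in H3K4me3 than in IgG, so 6 of 7 is a count beside a high background. The order of mean levels at the gene records was Hils1, Prm3, Tnp2, Tnp1, H1fnt, Prm2, and Prm1, and from Hils1 to Prm2 each differed from the next by less than the larger of their 2 SDs. The mean levels of Prm3 to Tnp1, 17.8 ± 3.62, 14.4 ± 2.78, and 13.4 ± 4.04 FPM (SD, n = 4), lay above those of 82.7%, 74.8%, and 72.6% of genes. Those of H1fnt, Prm2, and Prm1 at their records lay above 72.2%, 65.0%, and 43.3% of genes. The calls depended on the window and the scaling. In a 500-bp window, where Prm1 had too few fragments, 1 of 6 genes passed (Hils1). Over the gene body 2 of 7 passed, Prm1 (adjusted p = 0.0071) and Prm2 (adjusted p = 0.0068, quasi-Poisson test). Prm1 thus passed over its body but not at its record. When libraries were scaled to the fragments in start windows, 0 of 7 passed. That scaling lowers H3K4me3 because its fragments gather there. Calls over all genes fell as well, to 3746 of 17035, 4562 of 21001, and 2192 of 18428 in that order.

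**Figure D1:**
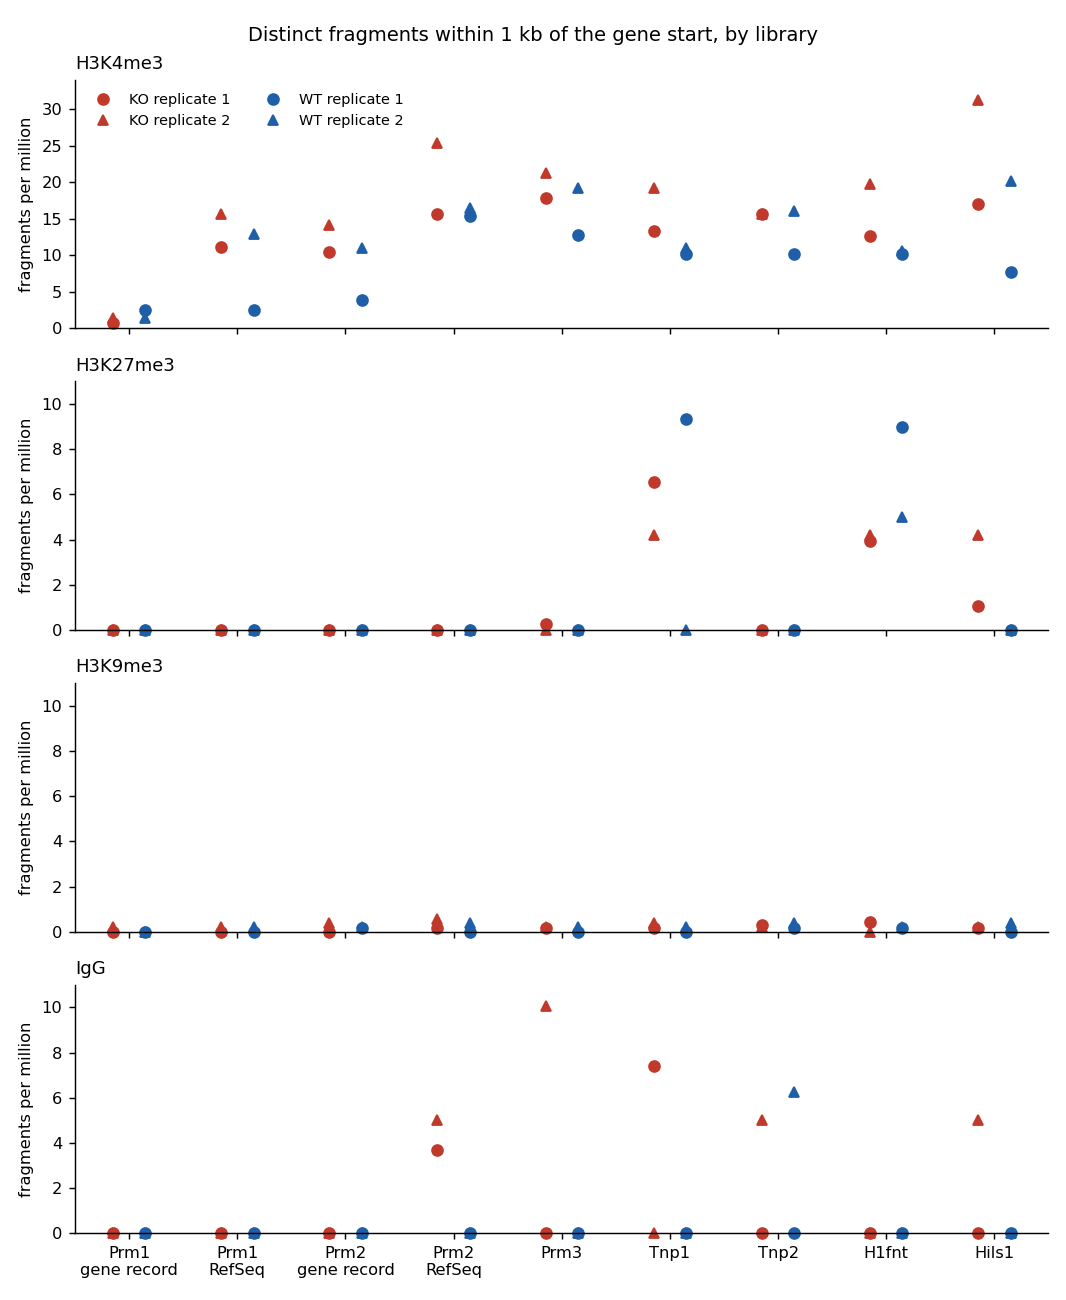
Distinct fragments within 1 kb of the start (y axis, FPM) for each gene, with separate columns for the gene-record and RefSeq starts of Prm1 and Prm2, in panels for the 4 targets; each point is 1 library, red for KO and blue for WT, circles for replicate 1 and triangles for replicate 2. H3K4me3 lies between 2.55 and 31.2 FPM except at the Prm1 gene record, H3K27me3 is above 4 FPM only at Tnp1, H1fnt, and Hils1, and 1 or 2 fragments make an IgG value of 3.7 to 10.1 FPM.

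H3K4me3 did not sit at the start alone but covered the genes as domains of 7 to 24 kb. A domain was taken as a run of 1-kb bins with a mean of at least 1.5 FPM over the 4 H3K4me3 libraries, a rule set after the profiles had been seen. The 4 genes on chromosome 16 shared 1 domain of 24 kb (chr16:10780001-10804000), which also held Socs1, a feedback inhibitor of cytokine signaling that lies next to Tnp2. The domain ended before the upstream start of the Prm1 record. Tnp1 lay in a domain of 22 kb (chr1:73009001-73031000), Hils1 in one of 9 kb (chr11:94965001-94974000), and H1fnt in one of 7 kb (chr15:98253001-98260000).

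The protamine and Tnp1 domains were among the widest of the genome. Of all gene starts, 51.3% lay in a domain, with a median width of 4 kb and a maximum of 39 kb. Widths of 7 and 9 kb, those at H1fnt and Hils1, were common, at 826 and 445 starts. Widths of 22 and 24 kb were found at 25 and 9 starts. Domains at least as wide as the cluster's covered 0.301% of all gene starts, with 0.529% for the domain of Tnp1, 9.03% for that of Hils1, and 15.3% for that of H1fnt. The domain of the cluster was 25 kb with a threshold of 1 FPM and 24 kb with 2 FPM, and that of Tnp1 24 kb and 21 kb. In the KO libraries alone the 2 domains were 23 and 24 kb wide and in the WT libraries alone 24 and 21 kb.

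**Figure D2:**
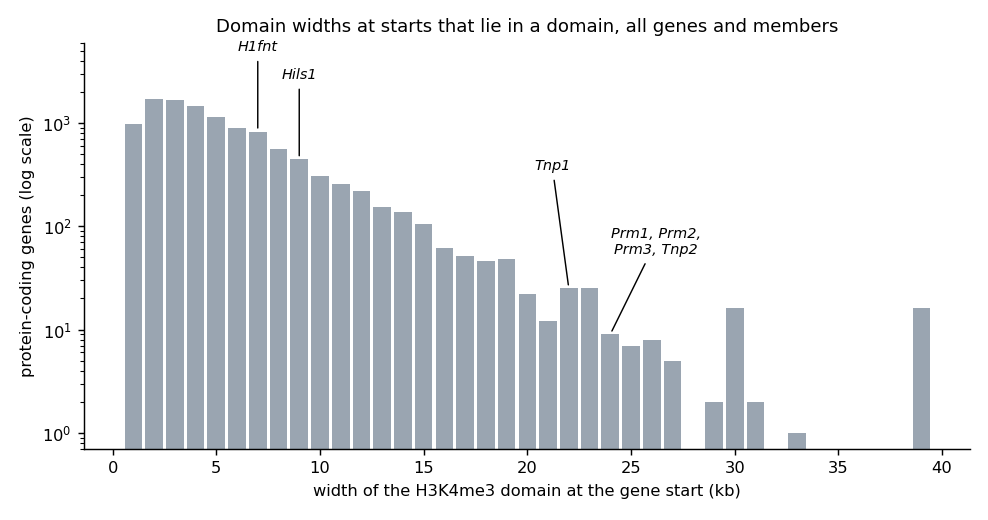
Number of protein-coding genes (y axis, log scale) by the width in kb of the H3K4me3 domain that covers their start (x axis), for starts in a domain; lines mark the 7 genes at their RefSeq starts. The cluster genes at 24 kb and Tnp1 at 22 kb stand in the far tail, and Hils1 (9 kb) and H1fnt (7 kb) are above the median of 4 kb.

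Within the cluster's domain, the 4 H3K4me3 libraries held 1420 fragments, a density of 7.68 FPM per kb over the pooled libraries. The 20 kb before it in genome order had 1.47 and the 20 kb after it 0.389 FPM per kb. The flank before it was uneven. Its bins at -35.3 to -31.3 kb from the RefSeq start of Prm1 had 1.92 to 7.62 FPM per kb in KO and 2.65 to 8.95 in WT. These lie above the domain threshold, so 1.47 is not the level of unmarked surroundings. For H3K27me3, 5 fragments fell in the 24 kb, 0.0274 FPM per kb (exact Poisson 95% interval 0.00889 to 0.0639, counting error only). The flanks had 16 and 12 fragments, 0.105 (0.0601 to 0.171) and 0.0788 (0.0407 to 0.138) FPM per kb, both above the value in the domain. The intervals overlap in part, which does not decide whether the densities differ, and no test was made. H3K9me3 gave 45 fragments, 0.0810 FPM per kb (0.0591 to 0.108). The flank before the domain had 0.0842 (0.0599 to 0.115) and the flank after it 0.0518 (0.0332 to 0.0771) FPM per kb. IgG gave 7 fragments, so its density of 0.369 FPM per kb is known only roughly.

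**Figure D3:**
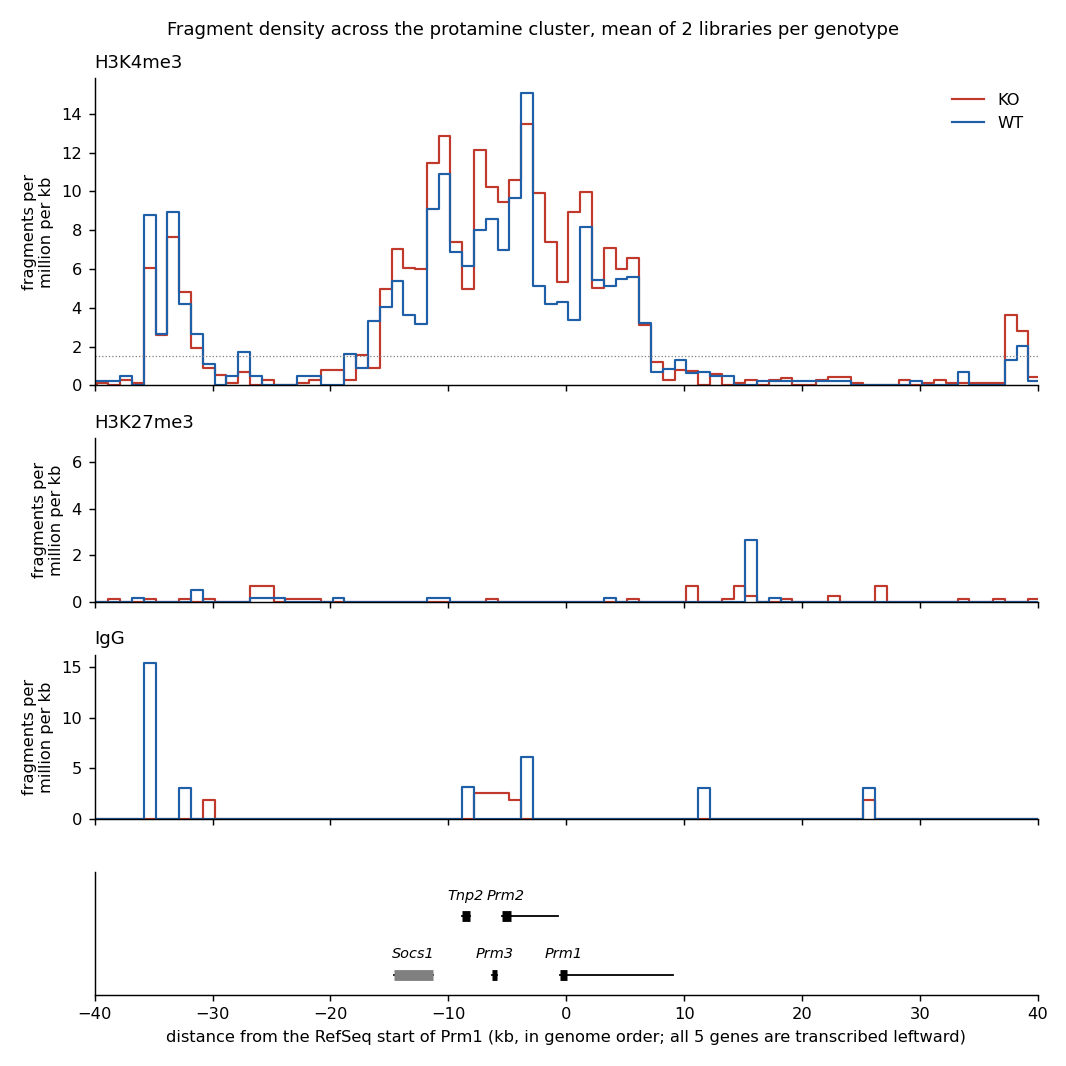
FPM per kb (y axes) for H3K4me3, H3K27me3, and IgG in 1-kb bins by distance in kb from the RefSeq start of Prm1 (x axis), as means of the 2 KO (red) and 2 WT (blue) libraries, with the gene records as lines, the short transcripts as black boxes, and Socs1 in grey; the dotted line is the domain threshold of 1.5. H3K4me3 is high from Socs1 to beyond the RefSeq start of Prm1 in both genotypes, H3K27me3 is near 0 there, and each IgG step inside the domain is 1 or 2 fragments.

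The mark was spread about the starts rather than peaked at them. Over the 4 libraries, the central 500 bp at the RefSeq starts held 38.0 H3K4me3 fragments per kb at Prm1, 80.0 at Prm2, 56.0 at Prm3, 68.0 at Tnp1, 52.0 at Tnp2, 72.0 at H1fnt, and 118 at Hils1. The flanks from 250 to 1000 bp on both sides held between 52.7 (Prm1, H1fnt) and 80.0 (Prm3, Hils1) per kb. Center and flank were therefore within 1.5 times of each other at all 7 genes. The same measure over all genes is not given here, so this spread is not shown to be particular to them. More fragments lay before the start than after it at Prm1 (61 against 37), Prm2 (85 against 70), Tnp1 (68 against 47), and Tnp2 (73 against 44). Fewer lay before it than after it at Prm3 (70 against 78), H1fnt (50 against 65), and Hils1 (78 against 101).

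H3K27me3 fragments were few at most of the 7 starts. Prm1, Prm2, and Tnp2 had 0 fragments within 1 kb of the start in all 4 H3K27me3 libraries, which allows up to 0.394 FPM over these libraries, and Prm3 had 1. This was not unusual: 21.0% of all genes had 0 such fragments, and the median gene had 2. Tnp1 had 25 and 3 fragments in the KO libraries and 27 and 0 in the WT libraries, that is 6.57, 4.21, 9.34, and 0 FPM. H1fnt had 15 and 3 fragments in KO and 26 and 1 in WT, that is 3.94, 4.21, 8.99, and 4.99 FPM. Most of these came from replicate 1. The libraries of replicate 2 were shallow, and a single fragment in the WT one equals 4.99 FPM. Hils1 had 4 and 3 fragments in KO and 0 in both WT libraries, of which 6 were small.

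None of the 7 genes passed the test of H3K27me3 against IgG, whereas 24.1% of all genes tested did. H1fnt was at least 1.56-fold higher than the IgG floor (adjusted p = 0.063), and Tnp1 was 2.86 times IgG (counting interval 0.755 to 24.2, adjusted p = 0.37). At both genes the mean level was higher than at 78.3% (Tnp1) and 78.8% (H1fnt) of all genes. H1fnt passed when every deposited fragment was counted (adjusted p = 0.024) and when the H3K27me3 library of KO replicate 1 was left out (adjusted p = 0.046, quasi-Poisson test). Tnp2, with 0 fragments in H3K27me3 and 2 in IgG, passed as lower than IgG when every deposited fragment was counted, when libraries were scaled to start windows, and without the IgG library of KO replicate 1 or WT replicate 1 (adjusted p = 0.018 to 0.048), and Prm3 passed as lower with every deposited fragment (adjusted p = 0.016). Of all genes tested, 13.1%, 6.05%, 2.46%, and 2.64% were called lower under these settings, in that order, against 3.28% in the reported test. With both marks counted, Tnp1 had 2.06 and H1fnt 2.52 times as much H3K4me3 as H3K27me3 on the FPM scale, a ratio that also depends on the antibodies, and 390 genes of the genome passed against IgG for both. The profile differed by gene: 28 of the 55 H3K27me3 fragments at Tnp1 lay within 250 bp of the RefSeq start, against 11 of 45 at H1fnt, where 32 lay after the start and 13 before it.

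**Figure D4:**
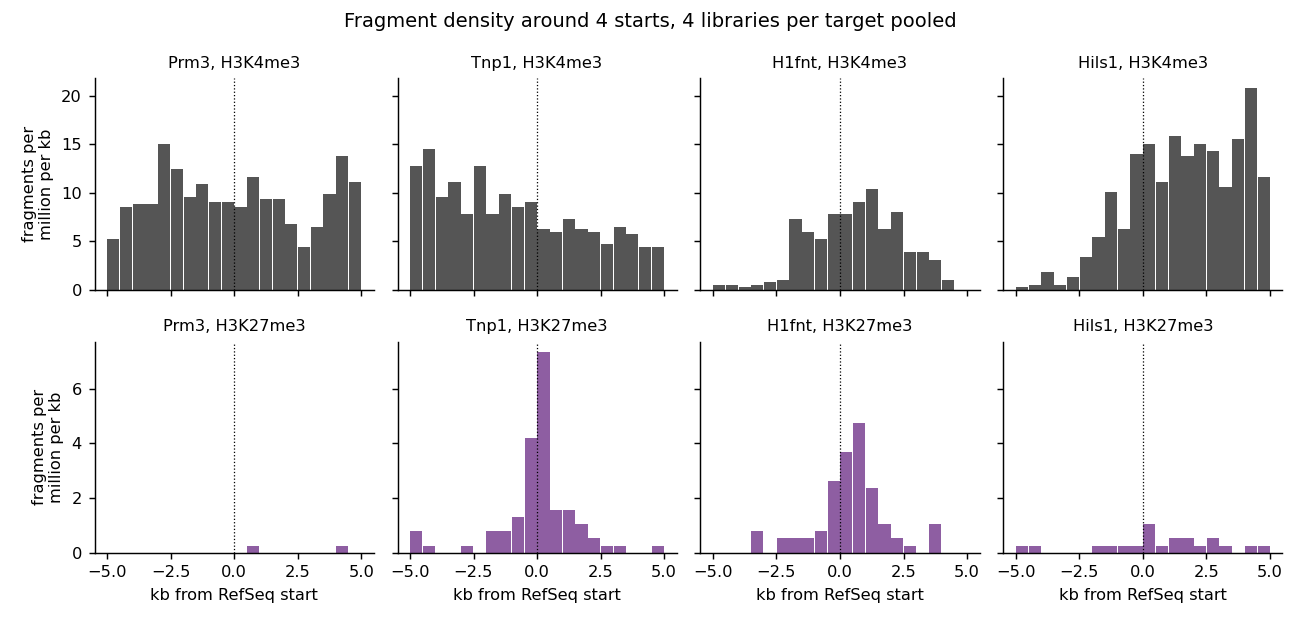
FPM per kb (y axes, 4 libraries per target pooled) in 500-bp bins by distance in kb from the RefSeq start in the direction of the gene (x axes), for H3K4me3 (top) and H3K27me3 (bottom) at Prm3, Tnp1, H1fnt, and Hils1. H3K4me3 extends past the start at all 4 genes and ends within about 5 kb at H1fnt. H3K27me3 gathers at the start of Tnp1 and lies around and mostly after that of H1fnt, with almost none at Prm3.

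Few H3K9me3 fragments fell at the 7 starts. The counts were 1 at Prm1, 3 at Prm3, 4 each at Prm2, Tnp1, and Hils1, 5 at H1fnt, and 6 at Tnp2 over 4 libraries with 23146258 distinct fragments, and no library exceeded 0.445 FPM at any of them. The median gene had 3 fragments. None of the 7 genes passed as higher than IgG (quasi-Poisson test), and 0.0326% of all genes did. None passed as lower either, but with every deposited fragment counted Prm3 and Tnp1 passed as lower than IgG (adjusted p = 0.023 and 0.034, quasi-Poisson test), as did 12.8% of all genes, against 0.754% in the reported test.

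No difference in H3K4me3 between KO and WT was detected at any of these genes. None of the 7 passed (adjusted p = 0.999 for each, limma-voom across 12780 genes), and 0% of all genes passed, with 402 under an unadjusted p of 0.05. The estimates were nevertheless mostly on the KO side. The log2 difference, KO minus WT, was 0.59 at Prm2 (approximate 95% interval -0.31 to 1.48), 0.19 at Prm3 (-0.52 to 0.89), 0.59 at Tnp1 (-0.17 to 1.35), 0.13 at Tnp2 (-0.60 to 0.86), 0.63 at H1fnt (-0.15 to 1.40), and 0.55 at Hils1 (-0.23 to 1.33). These values moved with single libraries. Without KO replicate 2 they were 0.31 at Prm2, 0.30 at Tnp1, 0.27 at H1fnt, and 0.16 at Hils1. Without WT replicate 1 they were 0.22 at Prm2 and 0.30 at Hils1, and without WT replicate 2 they were 1.53 and 1.37. With 1 library left out, Prm3 ranged from 0.053 to 0.54 and Tnp2 from -0.041 to 0.55. At the record of Prm1 the log2 difference was -0.46 (-2.15 to 1.23) and at its RefSeq start 0.69 (-0.26 to 1.63).

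The 2 KO libraries lay above both WT libraries at Tnp1 and H1fnt, as they did at 27.8% of all genes tested. KO exceeded WT in both replicate pairs, taken to be the siblings, at 5 of the 7 genes, as at 41.4% of genes. Prm1, at its record, and Tnp2 were higher in KO in 1 pair only. The median of the 7 was 0.55, and the median of all genes was 0.17. These medians were 0.70 and 0.11 without KO replicate 1, 0.21 and 0.29 without KO replicate 2, 0.26 and 0.14 without WT replicate 1, and 0.59 and 0.18 without WT replicate 2, so their order turned without KO replicate 2 (6 of the 7 genes tested in the last 3 of these fits). Scaling to the fragments in start windows moved these medians to 0.33 and -0.02 and turned Prm3 and Tnp2 to -0.02 and -0.06. With the replicate number as a block, 0 genes passed and the unadjusted p-values of Tnp1, H1fnt, and Hils1 fell to 0.049, 0.034, and 0.016 (limma-voom, adjusted p = 0.64, 0.63, and 0.60). Over all 12780 genes, those with an unadjusted p under 0.05 rose from 402 to 988 with this block (limma-voom).

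Over whole domains the picture was the same. The cluster held 163 and 210 FPM of H3K4me3 in the KO libraries and 122 and 179 FPM in the WT libraries, a log2 difference of 0.32 (pairs 0.42 and 0.23). The domain of Tnp1 held 127 and 199 FPM in KO and 94.3 and 133 FPM in WT (log2 difference 0.50), that of H1fnt 32.6 and 50.1 against 30.6 and 33.5 FPM (0.34), and that of Hils1 93.5 and 111 against 66.3 and 91.2 FPM (0.39). KO was higher than WT in both pairs at all 4 loci, as at 37.9% of the 9608 domains that hold a gene start, whose median log2 difference was 0.14. The SD between replicates on the log2 scale was 0.26 to 0.41. The exact two-sided permutation p was 0.667 for the first 3 and 0.333 for Hils1, the smallest that 2 against 2 libraries can give.

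H3K27me3 could be tested between genotypes at Tnp1 and H1fnt only, and neither passed. The log2 difference was 0.27 at Tnp1 (approximate 95% interval -1.56 to 2.09) and -0.92 at H1fnt (-2.72 to 0.88). The adjusted p was 0.99999 for both and 0% of 6492 genes passed (limma-voom), with 154 under an unadjusted p of 0.05. The sign at Tnp1 turned in several alternatives, with the pair as a block among them (-0.19), and it was -0.70 without the WT library of replicate 2, which had 0 fragments there. At H1fnt both KO libraries lay below both WT libraries, on counts of 15 and 3 against 26 and 1, as at 9.43% of the genes tested. No H3K9me3 or IgG start window of the 7 genes reached the 10 fragments needed for a test. Over the gene body, H3K9me3 could be tested at Prm1 (16 fragments) and Prm2 (11 fragments), and neither passed between KO and WT.

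**Figure D5:**
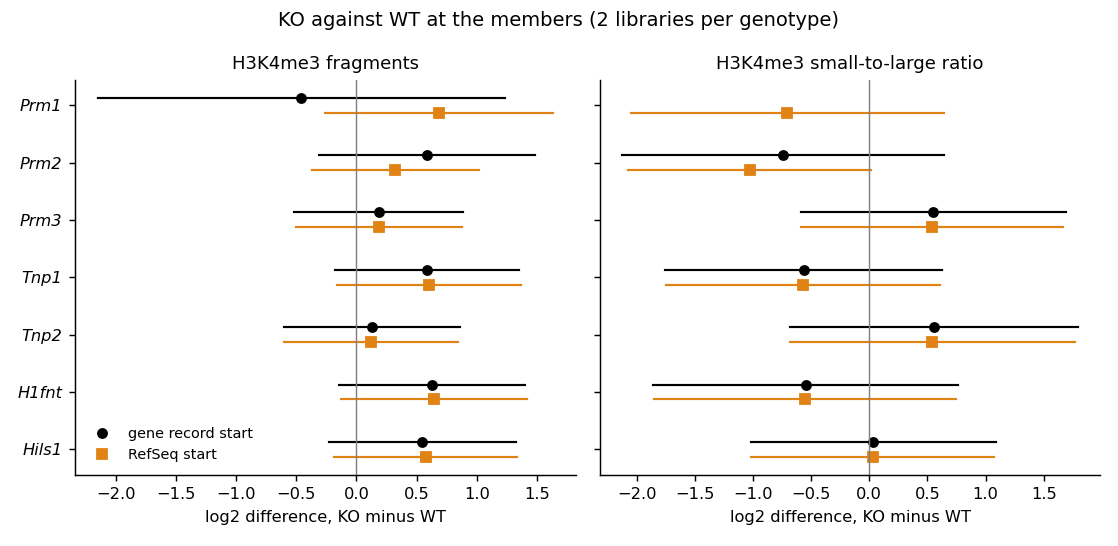
Log2 difference between KO and WT (x axes) for H3K4me3 fragments (left) and for the H3K4me3 ratio of small to large fragments, centered on each library's median (right), at each gene, with approximate 95% intervals as lines; black circles are gene-record starts and orange squares RefSeq starts, from 2 libraries per genotype. Every interval includes 0.

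The length of the released fragments reports how the nuclease cut, and fragments were classed as small (at most 120 bp) or large (at least 150 bp, about a nucleosome or more). The H3K4me3 libraries of the KO animals held more small fragments genome-wide, 0.533 and 0.637 small per large against 0.308 and 0.324 in WT. Summed over the 7 gene records, small fragments made up 38.1% (Wilson 95% interval 29.6 to 47.3) and 37.3% (32.6 to 42.2) of small and large ones in KO. In WT they made up 28.6% (17.2 to 43.6) and 23.1% (17.6 to 29.7). The same share over all start windows was 39.6% and 38.2% in KO and 29.1% and 24.5% in WT, inside each of these intervals. With the RefSeq starts of the 7 genes, the share was 35.3% and 35.7% in KO and 32.0% and 23.5% in WT, so that the gap in replicate 1 was small. Fragments shared by the windows of Prm2 and Prm3 count in both genes there. At the RefSeq start of Prm2 alone, summed over the replicates, the KO share (28.7%, Wilson 95% interval 20.8 to 38.2) was below the WT share (31.1%, 19.5 to 45.7), whereas at the other 6 genes the KO share was the higher.

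After each library was centered on its own median, none of the 6 genes with enough fragments passed the test of this ratio. The log2 differences, KO minus WT, were -0.74 at Prm2, -0.57 at Tnp1, -0.55 at H1fnt, 0.04 at Hils1, and 0.55 at both Prm3 and Tnp2, with an adjusted p of 0.991 at 5 of them and 0.998 at Hils1 (limma). The standard errors were 0.54 to 0.71, and the approximate 95% intervals reached as far as -2.12 (Prm2) and 1.79 (Tnp2), so that sizable changes in either direction lie within them. Over all 9864 genes tested, 0.0101% passed. At RefSeq starts 0% of 6447 genes passed, 281 of them had an unadjusted p under 0.05, and the log2 difference was -0.71 (SE 0.69) at Prm1 and -1.03 (SE 0.53, unadjusted p = 0.054) at Prm2, both with an adjusted p of 0.986 (limma). In the domain of the cluster, small per large was 0.403 and 0.556 in KO and 0.369 and 0.278 in WT, so that both KO libraries were higher (exact permutation p = 0.333, the smallest possible). The log2 difference within pairs 1 and 2 was 0.125 and 0.998 in this domain, 0.39 and 1.03 in that of Tnp1, 0.29 and 0.93 in that of H1fnt, and 0.61 and 1.12 in that of Hils1, beside 0.79 and 0.97 over the whole libraries.

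Genes that act in the same steps were described by lists chosen with earlier results of these data known. Of 14 genes that take part in replacing histones by protamines, 13 passed as higher in H3K4me3 than in IgG, beside 47% of all genes, and the median of the 14 was 17.1 FPM against 13.4 FPM for the 7 genes. Those with the smallest adjusted p were Hist1h2ba (25.4 ± 3.39 FPM, SD, n = 4), which encodes the testis H2B, Hmgb4 (21.8 ± 4.64 FPM), and Hspa2 (21.6 ± 2.48 FPM), a chaperone for transition proteins. The 1 gene that did not pass was Cdyl, named after its value was seen, which had 20.8 ± 3.95 FPM (adjusted p = 0.31). None of the 14 passed as higher in H3K27me3 than in IgG, whereas 24.1% of all genes did. Cdyl passed as lower than IgG in H3K27me3 and in H3K9me3 (adjusted p = 3.9e-05 and 3.1e-05, quasi-Poisson test). Of 8 genes listed for the regulation of transcription in haploid cells, not all of them transcription factors, 7 passed as higher in H3K4me3 than in IgG, beside 47% of all genes. Among them were Tbpl1 (22.5 ± 4.88 FPM), Fhl5 (21.9 ± 3.69 FPM), and Rfx2 (19.7 ± 3.997 FPM), while Kif17 (5.11 ± 1.04 FPM, named after its value was seen) did not pass. Crem passed as lower in H3K27me3 than in IgG.

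Among the other linker histones, H3K4me3 passed against IgG at 3 of the 8 tested of 9, beside 47% of all genes, namely the testis linker histone Hist1h1t (19.6 ± 1.93 FPM), Hist1h1a (18.7 ± 0.366 FPM), and H1fx (24.7 ± 4.69 FPM). H3K27me3 passed at 5, beside 24.1% of all genes, of which Hist1h1e (38.6 ± 12.5 FPM), Hist1h1b (46.4 ± 12.8 FPM), and Hist1h1c (16.6 ± 5.64 FPM) had the smallest adjusted p. Hist1h1a passed for both, at 15.6 ± 5.98 FPM of H3K27me3, about 3 times the level at Tnp1 or H1fnt. None of the genes of these 3 lists passed between KO and WT in H3K4me3 (limma-voom), with median log2 differences of -0.06 for the linker histones, 0.14 for the replacement factors, and 0.22 for the regulators.

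The genes most like the 7 over the 16 libraries were Mphosph6 (Pearson r = 0.979), Higd1a (0.978), and 1700024G13Rik (0.977), by the correlation of log2(FPM + 1) with the mean of the 7. They had 18.2, 20.6, and 22.4 FPM of H3K4me3 on average. Of the 18421 genes compared, 30.6% reached 0.9. The 16 libraries share targets and animals, and no test was made.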

How the data were processed

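The authors aligned paired reads to mm10 with Bowtie2 (version 2.3.4.3 in the submitters' processing notes; the methods name another version) and deposited, per library, a list of mapped fragments with chromosome, start, end, and length. Replicates were not pooled. The methods state that duplicates were removed, but the lists hold repeated coordinates. From these positions, which the check of units records as other than counts, distinct fragments were counted per library on the 19 autosomes, X, and Y. A fragment belonged to a window when its midpoint lay within 1000 bp of the gene start. FPM scales these counts to 1000000 distinct fragments per library. Intervals and floors cover counting error only, since there are no molecular identifiers.

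The members and gene lists were chosen with earlier results of these data known. Named genes are the 7 members, for each list up to 3 genes per direction with the smallest adjusted p, and the 3 most alike genes.

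Genes with at least 10 fragments were tested, over all 16 libraries for a mark against IgG and over the target's 4 libraries for KO against WT. The count over 16 libraries includes the mark under test, so a gene can enter through H3K4me3 alone. Calls were made at an adjusted p under 0.05 (Benjamini-Hochberg). KO was tested against WT within each target by limma-voom, and the log2 of small over large fragments, with 0.5 added to each, by limma with counting weights (at least 10 small and 10 large). Limma-voom had also been planned for each mark against IgG. On counts simulated from these libraries it called many genes that had not been changed. The cause of those calls was not tested. A quasi-Poisson test without a prior count, with dispersion moderated by limma, was therefore reported instead. The simulated counts varied by counting error only, so they could not show how either test behaves with variation between replicates. The change of test was made after the limma-voom results had been seen, and those results are given with the alternatives. The other fits were tested on simulated data of the same kind.

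Replicate numbers were taken to pair KO and WT siblings, since the study used sibling pairs for its replicate experiments and titles of the same number share codes. No label names the siblings. A sibling pair cannot be told apart from a batch that shares its replicate number. The deviations of same-numbered libraries from their group means correlated at 0.26 (H3K4me3), 0.20 (H3K27me3), 0.23 (H3K9me3), and 0.21 (IgG). RefSeq starts were available for 13980 genes. The fits used limma 3.58.1 in R 4.3.3. Counting used samtools 1.23.1 for the genome sequence and Python 3.11.15 with pandas 2.3.3, NumPy 2.4.6, and SciPy 1.17.1, and plots used matplotlib 3.10.9.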

Additional observations from a re-analysis of the deposited data

Results flagged for a closer look

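Over the 4 libraries of each target, with both genotypes together, the highest or lowest value stood far from the nearest of the others in 7 of 27 sets of values (Dixon's criterion). Chance gives about 1 in 20, but a set in which 1 library alone has a fragment always meets the criterion. That holds for 5 of the 7: H3K9me3 at Prm1 (0.191 FPM in KO replicate 2), H3K27me3 at Prm3 (0.263 FPM in KO replicate 1), and IgG at Prm3 (10.1 FPM in KO replicate 2), Tnp1 (7.39 FPM in KO replicate 1), and Hils1 (5.03 FPM in KO replicate 2), each 1 or 2 fragments.

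The other 2 concern H3K4me3. At Tnp2, WT replicate 1 had 10.2 FPM, below 15.6 FPM in both KO libraries and 16.05 FPM in WT replicate 2. At the RefSeq start of Prm2, KO replicate 2 had 25.3 FPM, above the 15.3 to 16.5 FPM of the other libraries.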

How the results depend on the processing

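Depth limited the tests against IgG: over the 4 IgG libraries 0 to 2 fragments fell at each of the 7 starts, so calls against IgG rest on very few background fragments, and IgG gave no test between genotypes. The planned limma-voom and limma-trend fits of each mark against IgG called 6 and 4 of the 7 genes higher in H3K4me3, beside 8102 and 7209 of all 18428. They also called 4 lower in H3K27me3 and 7 lower in H3K9me3, each by both tests, where the reported quasi-Poisson test, adopted after those results were seen, called 0. Over all genes, limma-voom and limma-trend called 58.1% and 51.8% lower in H3K27me3 and 91.1% and 90.7% lower in H3K9me3. For H3K9me3 they called 27 and 29 genes higher over all genes, against 6. The direction at the Prm1 record turned in both (adjusted p = 0.470 and 0.532).

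Members called higher in H3K4me3 than in IgG, 6 in the reported test, were 1 in a 500-bp window (Hils1) and 2 over the gene body (Prm1, Prm2). They were 0 with scaling to start windows, 4 without the filter, 7 at RefSeq starts, and 4 to 6 with 1 library left out. All genes called were 3746 of 17035 tested, 4562 of 21001, 2192 of 18428, 7231 of 21882, and 5755 of 11666 in the same order, against 8667 of 18428. With 1 library left out, 6626 to 8512 were called. The replicate block gave 6 members and 9118 of all 18428 genes. For H3K27me3, all genes called were 2608 of the 11666 tested at RefSeq starts and 3792 to 4410 with 1 library left out, against 4443 of 18428. Members called higher were 1 with every deposited fragment and 0 to 1 with 1 library left out, the 1 without H3K27me3 KO replicate 1. Members called lower, 0 in the reported test, were 2 with every deposited fragment for H3K27me3 (Prm3, Tnp2) and for H3K9me3 (Prm3, Tnp1), and for H3K27me3 1 (Tnp2) with scaling to start windows and without IgG KO replicate 1 or IgG WT replicate 1. All genes called lower numbered 2685 and 2623 with every deposited fragment for H3K27me3 and H3K9me3, and for H3K27me3 1114, 453, and 486 in the other 3 settings in turn, against 605 and 139 in the reported test. For H3K9me3, all genes called were 29 with every deposited fragment, 449 over the gene body, and 2 to 8 with 1 library left out (2 without IgG KO replicate 1, IgG KO replicate 2, or IgG WT replicate 1, and 3 without H3K9me3 WT replicate 1 or 2).

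No member was called between KO and WT, in coverage or in the small to large ratio, by any alternative, the replicate block among them. All genes called for H3K4me3 coverage numbered 0 to 9 with 1 library left out, the 9 without H3K4me3 WT replicate 2. For H3K27me3 coverage they were 11 by the quasi-Poisson test, 1 without the filter, 1 with the replicate block, and 0 to 15 with 1 library left out, the 15 without H3K27me3 KO replicate 1. For the ratio in H3K4me3, the 1 gene became 4 with every deposited fragment, 0 in the 500-bp window, without weights, and at RefSeq starts, and 0 to 2 with 1 library left out (2 without either KO replicate, 0 without WT replicate 2). For H3K27me3 the ratio called 7 genes with every deposited fragment, 8 in the 500-bp window, 10 with the filter of 5, 2 with the replicate block, and 0 to 19 with 1 library left out (19 without KO replicate 1, 9 without WT replicate 2). For H3K9me3 it called 12 with the replicate block and 0 to 12 with 1 library left out, the 12 without KO replicate 1.

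With 1 library left out, the log2 difference in H3K4me3 between KO and WT ranged from 0.22 to 1.53 at Prm2, 0.053 to 0.54 at Prm3, 0.30 to 0.80 at Tnp1, 0.27 to 0.88 at H1fnt, and 0.16 to 1.37 at Hils1. Signs turned for several members, each within its error. The log2 difference in H3K4me3 between KO and WT was 0.35 over the gene body and 0.69 at the RefSeq start at Prm1, -0.014 with every deposited fragment and -0.018 with scaling to start windows at Prm3, and -0.048 over the gene body, -0.061 with scaling to start windows, and -0.041 to 0.55 with 1 library left out at Tnp2. That of H3K27me3 at Tnp1 was -0.49 by the quasi-Poisson test, -0.21 in the 500-bp window, -0.11 over the gene body, -0.029 with scaling to start windows, -0.33 without the filter, -0.19 with the replicate block, -0.19 with all 16 libraries in 1 fit, and -0.70 to 1.27 with 1 library left out. In the ratio, the 500-bp window gave -0.31 at Tnp2, 0.38 at H1fnt, and -0.055 at Hils1, where every deposited fragment gave -0.63 and no weights -0.076. With 1 library left out the ratio ranged from -1.54 to 0.79 at Prm2, -0.77 to 0.040 at Tnp1, -0.38 to 0.96 at Tnp2, -0.87 to 0.59 at H1fnt, and -0.27 to 0.087 at Hils1. Alternatives at RefSeq starts, the quasi-Poisson test, and the domain rule were chosen after seeing the data. The cause of these changes was not tested.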
